A study of Rattus norvegicus with 18 samples.

Results

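The jejunal mucosa of rats given abemaciclib at 120 mg/kg/day was compared with that of rats given vehicle. The arrays were chosen by their treatment label: 3 arrays labelled abemaciclib at 120 mg/kg/day and 3 labelled vehicle, 6 of the 18 arrays in the series. All were hybridised with total RNA from mucosal scrapings of the jejunum of male Sprague Dawley rats, 6 to 8 weeks old, dosed by oral gavage once a day. The other arrays, 3 a group, came from rats given abemaciclib at 36, palbociclib at 30 or 100, or ribociclib at 300 mg/kg/day, and entered the same fit. The design text names 4 and 15 days of dosing, without a label that ties an array to either. Rats of the vehicle group received methyl cellulose, whereas the design text gives hydroxypropyl methylcellulose with tween 80 in citrate buffer as the carrier of abemaciclib, so carrier and compound cannot be told apart. The title of replicate B of the abemaciclib group gives 100 mg where its treatment label gives 120. The array was kept under its label.

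Abemaciclib inhibits CDK4 and CDK6. With their cyclin D partners these kinases phosphorylate RB, the retinoblastoma protein. Phosphorylated RB releases E2F factors, which switch on genes for DNA synthesis, and later a MYB-containing complex switches on genes of mitosis. In the small intestine, division is confined to the crypts. Their daughter cells differentiate as they move up the villus, where absorptive enterocytes carry out digestion and uptake beside mucus-secreting goblet cells and a dense population of intraepithelial lymphocytes.

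The values are log2 signals, so a difference of 1 is a 2-fold change. Differences are given as abemaciclib minus vehicle ± SE from limma, n = 3 arrays in each group, and a gene was called when its p adjusted over all 14217 genes was under 0.05. Arrays of the abemaciclib group correlated at 0.977 to 0.984 with each other, arrays of the vehicle group at 0.982 to 0.993, and arrays of different groups at 0.934 to 0.967. The 3′ minus 5′ signal of the beta-actin control probe sets, a sign of RNA quality, was 1.05, 0.91 and 0.86 in the abemaciclib arrays and 0.65, 0.79 and 0.57 in the vehicle arrays, so the beta-actin measure moved with the group. The same measure from the GAPDH control was 0.43, 0.12 and 0.07 with abemaciclib and 0.08, 0.11 and 0.08 with vehicle. By GAPDH only abemaciclib replicate A stood apart. The part of RNA quality in the results was not tested beyond the fit with the beta-actin measure as a covariate. Levels of epithelial and proximal gut markers were looked at because the label names jejunal mucosa. The epithelial genes Epcam, Vil1 and Krt8 lay between 13.23 and 13.82 in the abemaciclib arrays and between 13.46 and 13.83 in the vehicle arrays, with no call between the groups. Cdh1 and Cdh17 also gave no call. Epcam, Vil1 and Krt8 lay near the highest signal of the series, 14.34, and whether that hid a change was not tested. Krt19, another epithelial gene, had signals of 13.32, 12.95 and 13.14 with abemaciclib and 12.08, 12.06 and 11.88 with vehicle. These did not overlap, but the difference of 1.13 did not pass (adjusted p = 0.0622). Of 14 measured proximal intestine identity genes, 2 were lower with abemaciclib (1 without abemaciclib replicate C) and none higher, the median difference was -0.39, and 1 of the 14 differences lay above 0. Mean signals of the pancreatic acinar list were 4.52 to 4.84 in the abemaciclib arrays and 4.73 to 4.96 in the vehicle arrays, below the median signal of each array, which was 5.41 to 5.51 over the 18 arrays. That mean does not hold for each member. Cela1 had signals of 9.66, 9.28 and 10.3 with abemaciclib and 8.14, 9.13 and 8.75 with vehicle, with no call (adjusted p = 0.0859). Detection calls were not used, so signals below those medians are not shown to be above background.

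Of 14217 genes, 1365 were higher with abemaciclib (9.6% of all genes) and 1195 were lower (8.41%), and the median difference over all genes was -0.02. Counts of called list members below are to be read beside these shares. The rise was at least 2-fold for 790 genes and at least 8-fold for 27, and the fall at least 2-fold for 650 and at least 8-fold for 39. Every abemaciclib array lay above or every one below all vehicle arrays for 37.3% of all genes and for 2509 of the called genes. Single arrays changed the totals. Without abemaciclib replicate A, 673 genes were higher and 676 lower. Without vehicle replicate C, 779 were higher and 694 lower, and without vehicle replicate A, 874 were higher. With the beta-actin measure as a covariate 705 were higher and 891 lower. In each of the 6 fits that left out 1 array of these groups, 1213 genes were called. The genes described as changed below are among them unless another value stands beside them. RNA from scrapings cannot tell fewer cells of a type from less RNA per cell.

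**Figure D1:**
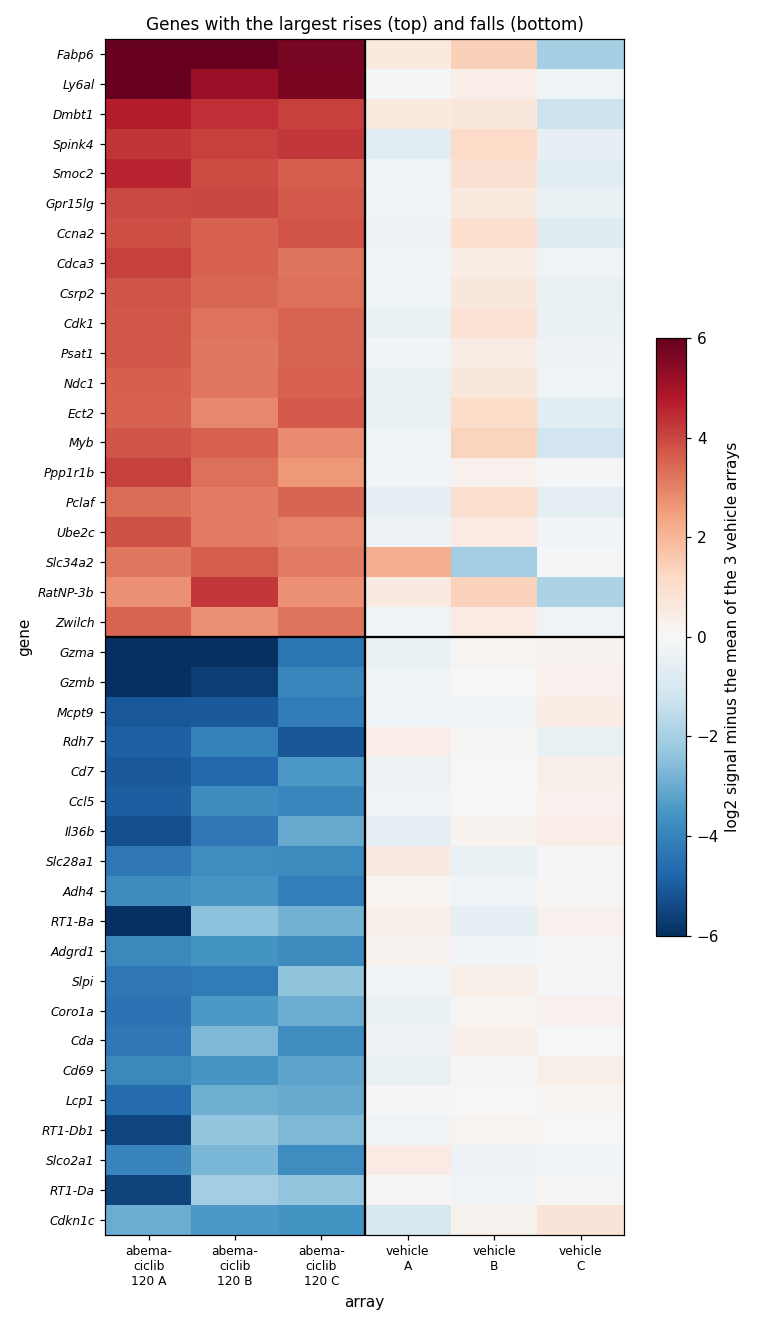
Log2 signal of each array minus the mean of the 3 vehicle arrays, for the 20 called genes with the largest rise (top) and the 20 with the largest fall (bottom). The 3 abemaciclib arrays are on the left and the 3 vehicle arrays on the right. The scale ends at 6 in both directions, and genes were chosen among those whose abemaciclib and vehicle arrays do not overlap. Placeholder symbols, such as those that start with LOC or RGD, were left out.

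Several cyclins and kinases that start the cell cycle were higher with abemaciclib. Of 24 measured genes in the list of cyclins, CDKs and the RB family, 9 were higher and 4 lower, with a median difference of 0.40. The list also holds the CDK inhibitor gene Cdkn1c, its member with the largest fall, described below. The count of lower genes was 2 without abemaciclib replicate A or C or vehicle replicate B or C. Cdk2, the kinase of S-phase entry, had signals of 7.71, 7.19 and 7.82 with abemaciclib, against 5.32, 5.40 and 5.50 with vehicle. The arrays did not overlap, and the difference was 2.17 ± 0.22, a 4.49-fold rise (adjusted p = 2.13e-05). Ccne1, its cyclin E1 partner, rose by 1.95 ± 0.28 (adjusted p = 0.000291), with replicate B the lowest of the abemaciclib arrays at 6.09.

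Cyclins D1 and D2, partners of the inhibited kinases, rose. Ccnd2, which codes for cyclin D2, had signals of 12.54, 11.89 and 11.83 with abemaciclib and 10.28, 10.24 and 10.0 with vehicle, a difference of 1.91 ± 0.31 (adjusted p = 0.000629). Ccnd1, for cyclin D1, differed by 2.34 ± 0.53 (adjusted p = 0.00572), and replicate A of the abemaciclib arrays was the highest at 10.02. Ccnd3 did not pass (0.61 ± 0.24, adjusted p = 0.095). Cdk4, a target of the compound, was 3.51-fold higher (adjusted p = 0.0115), a call lost without abemaciclib replicate A (adjusted p = 0.0619) and with the RNA covariate (adjusted p = 0.0636). Cdk6, the other target, had signals of 4.20, 4.31 and 4.24 with abemaciclib and 4.24, 4.27 and 4.41 with vehicle, all below the array medians. E2f8, an E2F family member that acts as a repressor, differed by 2.15 ± 0.22 (adjusted p = 2.13e-05). Rb1 itself was lower by 0.55 (adjusted p = 0.0477), a call lost in each of the 6 fits without 1 array.

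Among the CDK inhibitors, Cdkn1c, which codes for p57, was the most changed. Its signals were 6.0, 5.56 and 5.39 with abemaciclib, against 8.0, 9.18 and 9.76 with vehicle. All abemaciclib arrays lay below all vehicle arrays, with a difference of -3.33 ± 0.59 (adjusted p = 0.00106). Cdkn2d, for p19, a protein that binds CDK4 and CDK6, differed by -1.70 ± 0.26 (adjusted p = 0.000406), and its abemaciclib arrays spanned only 6.53 to 6.72. Cdkn1b, another CDK inhibitor gene, was called lower, but the call was lost in several limma fits. These were the fits without abemaciclib replicate A or C (adjusted p = 0.0714 and 0.0697) and without vehicle replicate B or C (0.053 and 0.0627). Cdkn1a, for p21 and a p53 target, did not pass: its signals were 10.52, 10.50 and 10.74 with abemaciclib and 10.14, 10.21 and 10.46 with vehicle (adjusted p = 0.414). Of 24 measured p53 target and apoptosis genes, 6 were lower (3 without abemaciclib replicate A) and 2 higher (none without abemaciclib replicate A or C or vehicle replicate B, or with the RNA covariate). Sesn1, a stress sensor, was among the lower ones, at -1.59 ± 0.28 (adjusted p = 0.000896), and so was Tnfsf10, the death ligand TRAIL, at -3.0 ± 0.38 (adjusted p = 9.86e-05).

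Most genes of DNA synthesis were higher. Of 35 measured licensing and replication fork genes, 26 were higher and 1 lower, with a median difference of 1.03. The count of higher genes was 15 without abemaciclib replicate A, 17 without vehicle replicate A, 16 without vehicle replicate C, and 14 in the fit with the RNA covariate. Mcm4, a subunit of the replicative helicase, had signals of 8.52, 7.76 and 8.15 with abemaciclib and 5.58, 6.0 and 5.16 with vehicle. The groups were apart by more than a unit, and the difference was 2.56 ± 0.41 (adjusted p = 0.000497). Another subunit gene, Mcm7, differed by 2.10 ± 0.35, Pola1, the catalytic subunit of the polymerase that starts new strands, by 2.0 ± 0.29, and Fen1, the nuclease that trims Okazaki fragments, by 1.98 ± 0.29 (adjusted p = 0.000704, 0.00028 and 0.000278). The 1 lower gene was Rnaseh2a, a subunit of an RNA-removing nuclease, at -0.81 ± 0.25 (adjusted p = 0.033), called in only 1 of the 6 fits without 1 array.

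Most enzymes that supply nucleotides rose. Of 21 measured genes, 18 were higher and none lower, with a median of 1.69. Ctps1, CTP synthase, had signals of 8.78, 7.66 and 8.56 with abemaciclib and 5.30, 5.85 and 5.25 with vehicle, a rise of 7.31-fold (log2 difference 2.87 ± 0.42, adjusted p = 0.000278). Only 1 of its 2 probe sets differed in that direction. Tk1, thymidine kinase, showed 9.54, 8.47 and 8.38 with abemaciclib against 6.14, 6.51 and 6.36 with vehicle, and all 3 of its probe sets differed in the same direction (difference 2.46 ± 0.30, adjusted p = 8.45e-05). Tyms, thymidylate synthase, rose by 2.36 ± 0.37 (adjusted p = 0.000439), and Shmt1 and Mthfd1 of folate metabolism by 2.47 ± 0.42 and 2.50 ± 0.45 (adjusted p = 0.000752 and 0.00121). In each of these genes replicate B was the lowest abemaciclib array and also the highest vehicle array, apart from Tk1, whose lowest abemaciclib array was replicate C.

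Repair genes that act on broken or stalled forks were also higher. Of 19 measured homologous recombination and Fanconi genes, 13 were higher and none lower (median 1.03). Exo1, a nuclease that resects DNA ends, was below the array medians throughout, with 5.27, 4.87 and 4.87 with abemaciclib and 3.32, 3.52 and 3.50 with vehicle (difference 1.56 ± 0.14, adjusted p = 1.76e-05). Fancd2, the ubiquitinated core of the Fanconi pathway, rose by 2.05 ± 0.26 (adjusted p = 0.00011) and Blm, the Bloom helicase, by 1.82 ± 0.28 (adjusted p = 0.000403).

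Mitotic genes were higher in nearly every list member tested for the spindle, and in most members of the other mitotic lists. Of 19 genes of mitotic entry, 15 were higher and none lower (median 2.05), as were 24 of 30 kinetochore and checkpoint genes (1.71), 20 of 21 spindle motor and cytokinesis genes (2.0) and 10 of 18 condensin, cohesin and chromosome structure genes (1.32). Promoters of these genes are known to carry a short element called CHR, bound by the MYB-containing complex, together with CCAAT boxes bound by the factor NF-Y. The 300-base RefSeq promoter windows of the rat build GRCr8, 250 bases before to 50 after the start of the gene, were searched on both strands for TTTGAA (CHR) and CCAAT. Windows were present for 11733 of the measured genes. CHR was found in 57.1% of 14 mitotic entry genes, 53.9% of 26 kinetochore genes, 68.4% of 19 spindle genes and 62.5% of 16 chromosome structure genes, against 12.3% of the windows of all measured genes and 18.1% of the 27457 windows in the table. CCAAT was found in 57.1%, 57.7%, 78.9% and 68.8% of the same lists, in that order, and in 37.3% of the windows of all measured genes. These matches describe the letters and are not evidence of binding.

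The windows of the genes for cyclin B2, CDC20 and CDK1 are shown because each holds both elements close to the start site. They were chosen after the matches were seen. Capitals mark TTTGAA and CCAAT, or their reverse complements, and each line runs 5′ to 3′ along the gene's own strand. The elements do not overlap. Ccnb2 lies on the minus strand at chr8:79981609-79981908, Cdc20 on the minus strand at chr5:137255750-137256049 and Cdk1 on the plus strand at chr20:19265043-19265342.
Ccnb2: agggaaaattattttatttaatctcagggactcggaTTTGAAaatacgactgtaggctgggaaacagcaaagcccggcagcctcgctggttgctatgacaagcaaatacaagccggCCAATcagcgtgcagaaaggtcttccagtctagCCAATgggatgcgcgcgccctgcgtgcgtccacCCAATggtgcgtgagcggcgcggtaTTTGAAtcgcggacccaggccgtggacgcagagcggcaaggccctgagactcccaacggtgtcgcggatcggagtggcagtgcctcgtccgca
Cdc20: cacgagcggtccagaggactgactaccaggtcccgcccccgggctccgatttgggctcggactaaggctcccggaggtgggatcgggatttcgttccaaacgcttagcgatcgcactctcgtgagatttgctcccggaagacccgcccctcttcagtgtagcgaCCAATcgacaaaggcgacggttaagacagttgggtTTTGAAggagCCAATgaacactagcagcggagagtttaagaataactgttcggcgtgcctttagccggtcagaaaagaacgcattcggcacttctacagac
Cdk1: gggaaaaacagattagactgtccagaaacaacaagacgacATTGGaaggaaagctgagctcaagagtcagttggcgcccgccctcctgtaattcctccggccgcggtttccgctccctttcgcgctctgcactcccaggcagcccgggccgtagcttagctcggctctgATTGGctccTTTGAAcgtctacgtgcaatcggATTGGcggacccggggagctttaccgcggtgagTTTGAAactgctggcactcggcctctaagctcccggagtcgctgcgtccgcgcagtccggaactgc
In Ccnb2, CCAAT starts at bases -134, -101 and -68 from the start site and CHR at -43, with a second CHR match at -214. In Cdc20 the CHR match at -51 lies between CCAAT matches at -86 and -41, and in Cdk1 CHR matches start at -72 and -16.

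The same 3 genes were among the strongest rises. Cdk1, the kinase of mitotic entry, had signals of 9.60, 9.14 and 9.37 with abemaciclib, against 5.44, 6.75 and 5.48 with vehicle, and was 11.2-fold higher (log2 difference 3.48 ± 0.66, adjusted p = 0.00179). Ccnb2 showed 9.84, 9.04 and 9.14 with abemaciclib and 6.15, 6.85 and 5.62 with vehicle (difference 3.13 ± 0.53, adjusted p = 0.000778). Cdc20 showed 9.17, 8.59 and 8.70 with abemaciclib and 5.48, 6.36 and 5.29 with vehicle, and all 5 of its probe sets differed in that direction (difference 3.11 ± 0.57, adjusted p = 0.00131). In all 3 genes replicate B was the highest of the vehicle arrays, and still lay below every abemaciclib array.

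The checkpoint kinase gene Ttk had signals of 7.70, 6.88 and 7.29 with abemaciclib and 4.10, 4.40 and 4.13 with vehicle, the vehicle values lying below the array medians, and the difference was 3.08 ± 0.31 (adjusted p = 2.13e-05). Zwilch, part of the complex that brings dynein to kinetochores, differed by 3.14 ± 0.32 (adjusted p = 2.13e-05), and Spc25, part of the complex that grips microtubules, by 3.12 ± 0.44 (adjusted p = 0.000218). Among the spindle genes, Kif22, a motor that binds chromosome arms, rose by 2.93 ± 0.34, and Kif20b, a motor of cytokinesis, by 2.81 ± 0.38 (adjusted p = 5.5e-05 and 0.000163). Ube2c, which starts the destruction of cyclin B and securin, was 9.84-fold higher (adjusted p = 0.000381). The proliferation marker Mki67 did not pass: its signals of 10.47, 9.90 and 9.51 with abemaciclib and 8.90, 8.01 and 7.78 with vehicle did not overlap, and the difference was 1.74 ± 0.64 (adjusted p = 0.0712).

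Replication promoters were searched for TTTCCCGC, an E2F site, and for the variant TTTGGCGC. Among the 31 replication genes with a window, 19.4% held the first and 22.6% the second, against 1.8% and 0.8% of the windows of all measured genes. Mcm5, another helicase subunit, is shown because its window holds both, in capitals (plus strand, chr19:13488563-13488862).
Mcm5: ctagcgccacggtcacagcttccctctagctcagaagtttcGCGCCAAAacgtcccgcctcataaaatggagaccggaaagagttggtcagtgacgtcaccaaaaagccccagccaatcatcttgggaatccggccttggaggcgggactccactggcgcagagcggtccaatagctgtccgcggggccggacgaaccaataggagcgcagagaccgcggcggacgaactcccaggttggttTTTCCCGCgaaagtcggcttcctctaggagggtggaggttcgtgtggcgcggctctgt
Mcm5 had signals of 7.37, 6.69 and 6.74 with abemaciclib and 5.44, 5.67 and 5.59 with vehicle, so the groups did not overlap (difference 1.37 ± 0.21, adjusted p = 0.000442).

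Most genes of ribosome production were higher. Of 17 genes of ribosomal RNA transcription and of the small RNA-protein particles that modify it, 14 were higher and none lower (median 1.84). Nhp2, of the particles that make pseudouridine, had signals of 10.75, 9.93 and 10.59 with abemaciclib, against 7.19, 8.18 and 6.99 with vehicle (difference 2.97 ± 0.63, adjusted p = 0.0038). Its partner Gar1 had 8.74, 7.93 and 8.10 with abemaciclib and 5.16, 6.08 and 5.39 with vehicle (difference 2.71 ± 0.42, adjusted p = 0.00042). The groups did not overlap for either gene, and replicate B was the highest vehicle array for both. Nop58, of the methylating particles, rose by 2.66 ± 0.44 (adjusted p = 0.000642). Of 38 subunit processing genes, 33 were higher and none lower, with a median of 1.49 and all 38 differences above 0. Rrs1, for assembly of the large subunit, differed by 2.44 ± 0.41 and Rcl1, for cleavage in the small subunit, by 2.24 ± 0.37 (adjusted p = 0.00073 and 0.00066).

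The E box CACGTG, which MYC and related factors can bind, was in 44.1% of the 34 subunit processing windows and in 8.9% of the windows of all measured genes. Utp20, a scaffold of the small subunit particle, is shown as the member with the largest rise among those that hold it (minus strand, chr7:25102800-25103099, the E box in capitals).
Utp20: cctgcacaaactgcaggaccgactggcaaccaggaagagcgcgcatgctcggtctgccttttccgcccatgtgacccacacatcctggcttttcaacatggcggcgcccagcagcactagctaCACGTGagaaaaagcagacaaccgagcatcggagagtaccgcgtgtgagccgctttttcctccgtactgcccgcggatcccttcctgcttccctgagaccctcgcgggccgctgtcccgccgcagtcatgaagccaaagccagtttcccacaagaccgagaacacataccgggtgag
Its signals were 8.39, 7.62 and 6.39 with abemaciclib and 4.83, 5.52 and 5.26 with vehicle, with replicate C the lowest abemaciclib array (difference 2.26 ± 0.48, adjusted p = 0.00363). The Myc gene itself had 8.62, 7.76 and 7.14 with abemaciclib and 4.96, 5.78 and 4.85 with vehicle, a 6.25-fold rise (adjusted p = 0.00145).

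Genes for the proteins of the finished ribosome were called in part. Of 29 measured cytosolic ribosomal protein genes, 10 were higher and none lower, with all 29 differences above 0 and a median of 0.85. That count was 2 without abemaciclib replicate A, vehicle replicate A or vehicle replicate C, 5 without abemaciclib replicate B, 4 without abemaciclib replicate C, 2 with the RNA covariate, and 28 when only the 2 groups entered the fit. Of 66 mitochondrial ribosomal protein genes, 12 were higher and none lower (median 0.62), with 7 without abemaciclib replicate A and 24 in the fit of the 2 groups alone. Mrps27, of the small mitochondrial subunit, rose by 1.86 ± 0.34 (adjusted p = 0.00148). The 57 subunits of the respiratory chain gave no call in either direction, with a median of 0.07. Mitochondrial import genes were called higher in 15 of 24 cases, a count that was 3 without abemaciclib replicate A, 7 without replicate C, 5 without vehicle replicate A or C and 5 with the RNA covariate. C1qbp, a mitochondrial matrix protein, had signals of 11.42, 10.95 and 11.22 with abemaciclib and 8.45, 9.32 and 8.49 with vehicle (difference 2.44 ± 0.56, adjusted p = 0.00652).

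Genes that make serine and polyamines changed in a few members. Psat1, an enzyme of serine synthesis, had signals of 9.32, 8.75 and 9.12 with abemaciclib, against 5.47, 6.07 and 5.29 with vehicle, and was 11-fold higher (difference 3.46 ± 0.45, adjusted p = 0.000129). The enzyme before it in the pathway, Phgdh, rose by 1.82 ± 0.29 (adjusted p = 0.000496) and the asparagine synthetase Asns by 1.64 ± 0.34 (adjusted p = 0.00337). In all, 6 of 23 serine, asparagine and ATF4 target genes were higher and none lower, with a median of 0.15. Among 11 polyamine and one-carbon genes, 3 were higher. Srm, spermidine synthase, rose by 2.76 ± 0.44 and Mtap, which salvages the by-product of that step, by 2.61 ± 0.46 (adjusted p = 0.000547 and 0.00106).

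**Figure D2:**
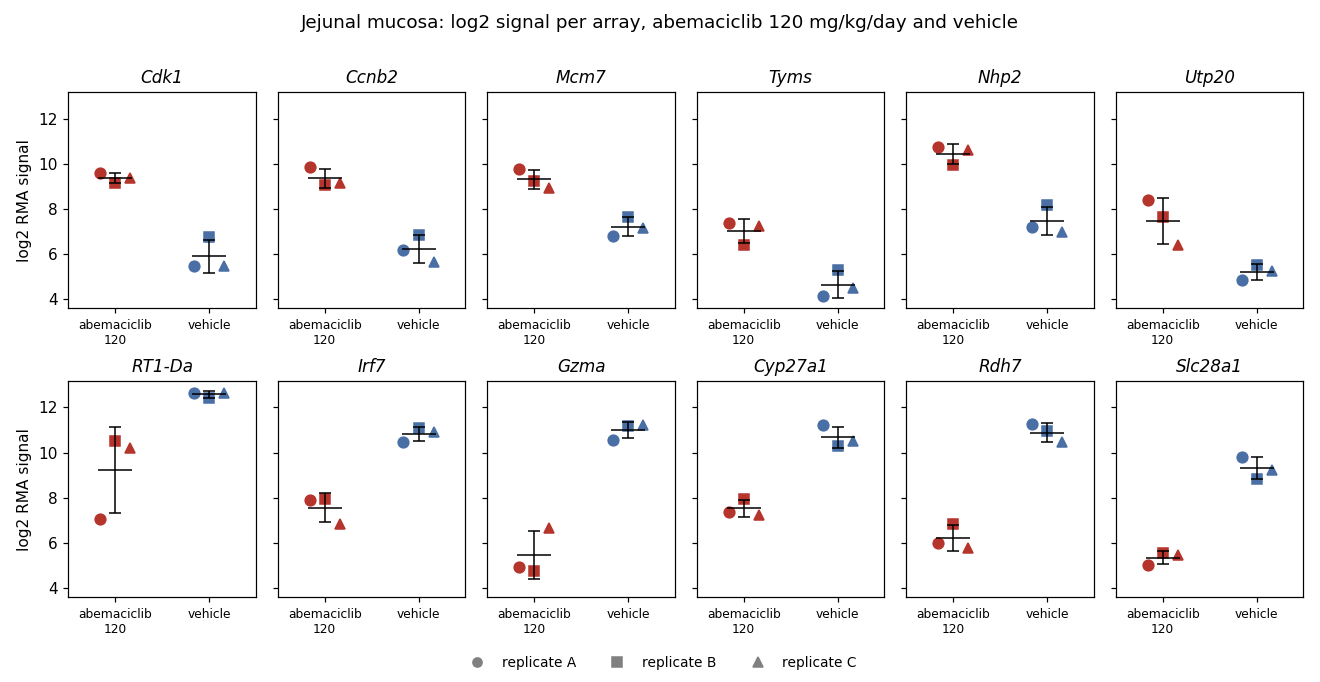
Log2 signal of 12 genes in each array, abemaciclib at 120 mg/kg/day on the left of each panel and vehicle on the right. Points are arrays, marked by replicate letter, and the bar is the mean with its SD (n = 3). The 6 genes of the upper row lie higher with abemaciclib and the 6 of the lower row lower, with no overlap, and RT1-Da shows abemaciclib replicate A at 7.03, below the other abemaciclib arrays.

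Crypt-base genes were higher. Of 20 measured stem cell genes, 15 were higher and none lower (median 1.19), and 16 of the 20 differences lay above 0. The higher count was 11 without abemaciclib replicate A or vehicle replicate A or C, and 10 with the RNA covariate. Smoc2, a matrix protein of the stem cell signature, had signals of 9.73, 9.10 and 8.76 with abemaciclib and 4.92, 6.09 and 4.47 with vehicle, a 16.3-fold rise (difference 4.03 ± 0.58, adjusted p = 0.000272), and all 3 of its probe sets differed in that direction. Prom1 and Lrig1, membrane proteins of crypt cells, differed by 2.63 ± 0.44 and 2.10 ± 0.42 (adjusted p = 0.000728 and 0.00243). Lgr5, the R-spondin receptor that defines these cells, had signals of 4.66, 4.94 and 4.18 with abemaciclib and 3.74, 3.99 and 3.94 with vehicle. Its difference passed at 0.70 ± 0.15 (adjusted p = 0.00376), with every signal below the array medians. Axin2, a feedback gene of the Wnt pathway, rose by 1.72 ± 0.35 (adjusted p = 0.00275), whereas Frat2, which binds the kinase GSK3, fell by 2.14 (adjusted p = 0.000406). The 26 Wnt genes together gave 6 higher and 1 lower, with a median of 0.0, and the 14 Notch genes gave no call.

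Goblet, mucosal defence and enteroendocrine genes changed in some members. Of 16 goblet cell genes, 3 were higher, and 2 without abemaciclib replicate A or vehicle replicate B or C or with the RNA covariate. A lower count of 1 was 0 in each of the 6 fits without 1 array and with the RNA covariate. Spink4, a small secreted goblet protein, had signals of 12.45, 12.26 and 12.41 with abemaciclib, against 7.48, 9.29 and 7.68 with vehicle, a 18.7-fold rise (difference 4.23 ± 0.81, adjusted p = 0.00184), while Muc2, the main mucin, stayed within 13.90 to 14.03 with abemaciclib and 13.79 to 13.91 with vehicle. The Muc2 signals lay near the highest signal of the series, 14.34, and whether that hid a change was not tested. Of 25 antimicrobial and interleukin-22 responsive genes, 4 were higher and 5 lower, with a median of -0.02. Both counts were 3 to 5 in the fits without 1 array, and with the RNA covariate they were 3 and 2. Dmbt1, a mucosal scavenger protein that binds bacteria, was 21.1-fold higher (adjusted p = 0.00256). Duox2, the epithelial peroxide generator, rose by 2.72 ± 0.50 (adjusted p = 0.0013). The antibacterial lectin gene Reg3b was lower: its signals were 9.35, 10.34 and 13.25 with abemaciclib and 13.55, 13.89 and 13.42 with vehicle. Replicate C lay near the vehicle arrays and the other abemaciclib arrays lay below (difference -2.64 ± 0.62, adjusted p = 0.00705, and 0.0546 with the RNA covariate). Slpi, a protease inhibitor of mucosal surfaces, showed 4.87, 4.94 and 6.74 with abemaciclib and 8.92, 9.47 and 9.02 with vehicle (difference -3.63 ± 0.61, adjusted p = 0.000752). Of 21 enteroendocrine genes, the 1 called was Gip, an incretin of the upper gut, at -1.65 ± 0.36 (adjusted p = 0.00445), with 4 lower and 1 higher in the fit of the 2 groups alone.

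Ion and water transport genes were called in both directions. Of 38 measured genes, 6 were higher and 10 lower, with a median of -0.13, and the lower count was 6 without vehicle replicate A or C and with the RNA covariate. Genes of chloride secretion, which runs in crypts, were among the higher ones. Kcne3, the potassium channel subunit that sustains it, had signals of 9.39, 8.87 and 8.90 with abemaciclib and 5.99, 6.86 and 5.97 with vehicle (difference 2.78 ± 0.42, adjusted p = 0.000373). Its channel partner Kcnq1 rose by 1.47 ± 0.32 (adjusted p = 0.00464). Slc12a2, the sodium, potassium and chloride cotransporter that loads the cell, showed 12.62, 11.85 and 11.61 with abemaciclib against 9.39, 10.29 and 8.55 with vehicle (difference 2.61 ± 0.60, adjusted p = 0.00652), a call lost with the RNA covariate (adjusted p = 0.0586). The chloride channel gene Cftr itself did not differ beyond the spread, at -0.06 ± 0.40 (adjusted p = 0.951). The water channel gene Aqp4, a crypt gene, rose by 2.82 ± 0.38 (adjusted p = 0.000162).

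Some further genes of secretion and transport were singled out after their values were seen. Guca2b, for uroguanylin, had signals of 11.98, 12.94 and 12.22 with abemaciclib and 13.37, 13.24 and 13.55 with vehicle (difference -1.01 ± 0.18, adjusted p = 0.00126). Guca2a, for guanylin, fell by 0.64 on the log2 scale (adjusted p = 0.00438), and Prkg2, the kinase downstream of their receptor, by 0.71 (adjusted p = 0.00639). The receptor Gucy2c was lower by 0.78 (adjusted p = 0.0201), called in 3 of the 6 fits without 1 array. Car2, a carbonic anhydrase, differed by -1.77 ± 0.26 (adjusted p = 0.00028) and Aqp3, a basolateral water channel, by -1.37 ± 0.24 (adjusted p = 0.000998). Of 28 tight junction and adhesion genes, 3 were higher and 2 lower, near the shares of all genes (9.6% and 8.41%). The higher count was 1 without abemaciclib replicate A or C or vehicle replicate B or C, and 0 without vehicle replicate A. The lower count was 0 without abemaciclib replicate A or vehicle replicate C and with the RNA covariate, and 1 without abemaciclib replicate C or vehicle replicate A. Cldn2, the pore-forming claudin of crypts, showed 9.42, 8.52 and 10.59 with abemaciclib against 6.09, 8.13 and 6.38 with vehicle, and its call (adjusted p = 0.0161) was kept in 2 of the 6 fits without 1 array.

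Among genes of digestion and uptake, single members were lower. Of 25 nutrient transporters, 9 were lower (median -0.41), and 5 with the RNA covariate. The higher count of 1 was 0 without any 1 abemaciclib array and without vehicle replicate B or C. Slc28a1, which carries pyrimidine nucleosides into the enterocyte, had signals of 5.01, 5.56 and 5.46 with abemaciclib, against 9.82, 8.84 and 9.23 with vehicle. It was 15.5-fold lower (difference -3.96 ± 0.39, adjusted p = 2.13e-05), and the abemaciclib values lay near the array medians. Slc2a2, the glucose transporter of the basolateral side, differed by -1.60 ± 0.37 (adjusted p = 0.00679), and Slc3a1, a subunit of the cystine transporter, by -1.30 ± 0.30 (adjusted p = 0.00696, and 0.0505 with the RNA covariate). Of 23 brush border genes, 3 were lower (6 without abemaciclib replicate B, 7 in the fit of the 2 groups alone), beside the 8.41% of all genes. These were Treh, the enzyme that splits trehalose, at -2.96 ± 0.49, Ggt1, which breaks down glutathione, at -2.45 ± 0.57, and Ace, a peptidase, at -2.06 ± 0.29 (adjusted p = 0.000625, 0.00671 and 0.000239). Of 27 fat absorption genes, 8 were lower and none higher, and 5 without abemaciclib replicate A or with the RNA covariate. Cd36, a fatty acid receptor, had signals of 9.21, 11.08 and 10.87 with abemaciclib and 12.95, 12.85 and 12.94 with vehicle, with replicate A the lowest (difference -2.53 ± 0.40, adjusted p = 0.000497). The sterol exporter gene Abcg8 fell by 2.11 on the log2 scale (adjusted p = 0.000837).

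Some enzymes that turn dietary retinol into its active and storage forms were lower. Of 27 retinoid and carotene genes, 6 were lower and none higher (median -0.32). Rdh7, a retinol dehydrogenase, had signals of 6.0, 6.85 and 5.75 with abemaciclib, against 11.28, 10.94 and 10.45 with vehicle, a 25.8-fold fall (difference -4.69 ± 0.58, adjusted p = 9.03e-05). The groups were more than 3 units apart. Adh4, an alcohol dehydrogenase that oxidises retinol, differed by -3.83 ± 0.61 and the dehydrogenase gene Rdh16 by -2.65 ± 0.32 (adjusted p = 0.000502 and 8.45e-05). Lrat, which esterifies retinol for storage, differed by -2.16 ± 0.39 (adjusted p = 0.00115).

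Cyp27a1, the sterol 27-hydroxylase of bile acid synthesis, had the smallest adjusted p of the named genes. Its signals were 7.38, 7.96 and 7.25 with abemaciclib and 11.21, 10.31 and 10.52 with vehicle, a fall of 8.88-fold with no overlap (difference -3.15 ± 0.23, adjusted p = 3.29e-06). The named gene with the largest rise was Fabp6, the bile acid binding protein that marks the ileum, at 13.56, 13.35 and 12.95 with abemaciclib and 7.81, 8.67 and 5.25 with vehicle. The vehicle arrays spread over more than 3 units, and the difference of 6.05 ± 1.55 (adjusted p = 0.0123) was no longer called without abemaciclib replicate A or vehicle replicate C, at adjusted p = 0.0504 and 0.0722. Slc10a2, the ileal bile acid carrier, showed 8.10, 6.37 and 9.26 with abemaciclib against 5.37, 5.50 and 5.53 with vehicle, and its call (adjusted p = 0.0182) was kept in 2 of the 6 fits without 1 array. The nuclear receptor target Nr0b2 was lower, at -2.14 ± 0.62 (adjusted p = 0.025), also kept in 2 of 6. Of the 16 ileal and bile acid genes, 3 were higher and 4 lower. The higher count was 0 with the RNA covariate and without abemaciclib replicate A or vehicle replicate C, and 1 without abemaciclib replicate C or vehicle replicate A. The lower count was 2 in each of these.

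Some genes of fat oxidation and glucose production were lower. Of 32 fatty acid oxidation, ketogenesis and PPAR target genes, 9 were lower (5 without vehicle replicate C) and 3 higher (1 without abemaciclib replicate A, vehicle replicate A or vehicle replicate C). Ehhadh, of peroxisomal oxidation, had signals of 8.76, 8.96 and 9.08 with abemaciclib and 10.34, 10.18 and 10.62 with vehicle (difference -1.45 ± 0.20, adjusted p = 0.000187), and Ppargc1a, a coactivator of mitochondrial genes, fell by 1.96 (adjusted p = 0.000275). Of 24 glycolysis and gluconeogenesis genes, 8 were lower and 1 higher. The lower count was 5 with the RNA covariate and also without abemaciclib replicate A or vehicle replicate A or C. Pklr, a pyruvate kinase, differed by -1.97 ± 0.27 and Fbp1, of gluconeogenesis, by -1.42 ± 0.26 (adjusted p = 0.000195 and 0.00134). The 1 higher gene, Pck2, codes for the mitochondrial form of the enzyme whose cytosolic form is Pck1. It rose by 1.55 ± 0.34 (adjusted p = 0.00444), whereas Pck1 showed 10.28, 11.62 and 6.50 with abemaciclib against 12.44, 12.94 and 12.75 with vehicle and kept its call (adjusted p = 0.0325) in 1 of the 6 fits.

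Lipid synthesis genes were on the higher side. Fasn, fatty acid synthase, had signals of 9.85, 8.91 and 8.94 with abemaciclib and 6.62, 6.92 and 6.73 with vehicle (difference 2.48 ± 0.43, adjusted p = 0.000958). In the list of 18 fatty acid synthesis genes, 4 were higher and none lower (1 without abemaciclib replicate A, 2 with the RNA covariate). Of 22 cholesterol genes, 9 were higher and none lower. That count was 1 without abemaciclib replicate A or vehicle replicate C, 3 without vehicle replicate A and with the RNA covariate, and 4 without abemaciclib replicate C or vehicle replicate B. Msmo1, a sterol oxidase, kept its call in every such fit, with 10.25, 10.55 and 11.63 with abemaciclib and 9.09, 8.85 and 9.0 with vehicle (difference 1.83 ± 0.43, adjusted p = 0.00706). Of 44 drug-metabolising enzymes and transporters, 11 were lower and none higher, and 7 without abemaciclib replicate A, 6 without vehicle replicate C, and also 6 given the RNA covariate. Cyp3a18, of the family that oxidises many drugs, differed by -1.26 ± 0.23 (adjusted p = 0.00122), and Nr1i3, the receptor CAR that induces such enzymes, by -1.59 ± 0.35 (adjusted p = 0.00522).

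Hormone and stress responses were called in part. Among 24 glucocorticoid and circadian genes, 3 were higher and 6 lower. The higher count was 1 without abemaciclib replicate A, vehicle replicate A or vehicle replicate B, 0 without vehicle replicate C, and 1 with the covariate for RNA quality. The lower count was 3 without abemaciclib replicate A or vehicle replicate A or B, and with the RNA covariate. The induced target Tsc22d3 was lower, with 7.92, 8.96 and 7.51 with abemaciclib and 10.04, 10.09 and 10.87 with vehicle (difference -2.21 ± 0.50, adjusted p = 0.00588), while another, Fkbp5, a cochaperone of the receptor, was higher, with 9.82, 9.26 and 10.28 with abemaciclib and 7.84, 8.35 and 7.02 with vehicle (adjusted p = 0.0101, and 0.0634 without vehicle replicate C). Nfil3, a clock-controlled repressor, fell by 2.20 on the log2 scale (adjusted p = 0.00652). Of 28 genes of P-TEFb and transcription elongation, 2 were higher, beside 9.6% of all genes. The lower count of 2 was 0 in each of the 6 fits without 1 array and with the RNA covariate. Cdk9, the kinase of P-TEFb, rose by 0.87 ± 0.19 (adjusted p = 0.00434) and Ccnk, a cyclin of related kinases, by 1.10 ± 0.25 (adjusted p = 0.00599). The 24 unfolded protein response genes gave 1 call, with a median of 0.41 and 18 differences above 0. That count was 6 in the fit of the 2 groups alone. It was 0 without abemaciclib replicate A or vehicle replicate B or C and with the RNA covariate. The 29 NRF2 target genes gave 7 higher and 2 lower. The higher count of NRF2 targets was 1 without abemaciclib replicate A or vehicle replicate C and 3 without vehicle replicate A and with the RNA covariate, and the lower count was 1 with that covariate and without abemaciclib replicate A or C or vehicle replicate B or C.

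Lymphocyte genes fell, and the cytotoxic list had the lowest median of the 66 lists. Of 24 cytotoxic effector genes, 15 were lower and none higher (median -2.03), as were 19 of 30 T cell receptor genes (median -1.08). Gzma, granzyme A, had signals of 4.94, 4.76 and 6.66 with abemaciclib, against 10.57, 11.18 and 11.22 with vehicle. Replicate C was the highest abemaciclib array for Gzma, Gzmb and Cd7, and the others were below the array medians for Gzma and Gzmb. The fall of Gzma was 46.4-fold (difference -5.54 ± 0.69, adjusted p = 9.03e-05) and that of granzyme B, Gzmb, 36.6-fold (adjusted p = 0.000204). Cd3e, a chain of the T cell receptor complex, showed 4.75, 5.51 and 5.68 with abemaciclib and 7.88, 8.09 and 8.30 with vehicle (difference -2.78 ± 0.37, adjusted p = 0.000162), and Cd8a, the coreceptor of most intraepithelial T cells, differed by -2.18 ± 0.27 (adjusted p = 8.38e-05). Ptprc, the common leukocyte antigen, differed by -2.98 ± 0.38 (adjusted p = 0.000114). The mean signal of the whole T cell receptor list was 5.01 to 5.40 in the abemaciclib arrays and 6.48 to 6.69 in the vehicle arrays.

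Chemokine and cytokine genes fell in part. Of 53 measured, 17 were lower and none higher. Ccl5, which attracts T cells, had signals of 5.79, 6.94 and 6.83 with abemaciclib and 10.54, 10.71 and 10.98 with vehicle (difference -4.22 ± 0.65, adjusted p = 0.000403). Il2rg, the shared receptor chain for several lymphocyte cytokines, differed by -2.53 ± 0.27 (adjusted p = 3.52e-05) and Il1b by -2.21 ± 0.30 (adjusted p = 0.000164). Il36b, an interleukin-1 family cytokine, showed 4.55, 5.56 and 6.82 with abemaciclib against 9.23, 10.04 and 10.24 with vehicle (difference -4.19 ± 0.79, adjusted p = 0.00174). Mcpt9, a mast cell protease, was 27.3-fold lower (adjusted p = 8.4e-05), while of 20 mast cell genes 4 were lower (2 without abemaciclib replicate A or vehicle replicate C), and Cpa3, another mast cell protease, had 4.27, 5.78 and 5.83 with abemaciclib and 4.87, 4.86 and 4.87 with vehicle, with no call.

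Genes of antigen presentation through MHC class II were lower. Of 13 measured genes, 8 were lower and none higher (median -1.61). RT1-Da and RT1-Ba code for alpha chains of the rat class II molecules. Class II promoters share a block of elements that ends in a CCAAT box, bound by NF-Y, close to the start site. That motif was in 81.8% of 11 class II windows, against 37.3% of the windows of all measured genes. Both windows are shown because they hold it at a similar place, on the opposite strand, as ATTGG in capitals. Both lie on the plus strand, RT1-Da at chr20:4515165-4515464 and RT1-Ba at chr20:4576807-4577106.
RT1-Da: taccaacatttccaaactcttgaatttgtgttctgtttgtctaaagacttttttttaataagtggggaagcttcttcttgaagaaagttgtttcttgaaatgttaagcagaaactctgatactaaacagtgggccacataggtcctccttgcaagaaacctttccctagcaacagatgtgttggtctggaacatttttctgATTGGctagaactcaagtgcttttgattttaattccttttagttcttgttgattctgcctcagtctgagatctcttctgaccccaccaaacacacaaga
RT1-Ba: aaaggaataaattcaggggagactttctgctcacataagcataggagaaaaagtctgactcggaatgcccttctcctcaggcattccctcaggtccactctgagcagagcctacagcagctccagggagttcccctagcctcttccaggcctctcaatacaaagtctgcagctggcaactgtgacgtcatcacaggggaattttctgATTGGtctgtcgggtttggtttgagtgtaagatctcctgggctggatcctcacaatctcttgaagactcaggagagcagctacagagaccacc
The match begins at base -49 in RT1-Da and at base -43 in RT1-Ba.

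Both genes fell, and 1 array lay far below the others. RT1-Da had signals of 7.03, 10.49 and 10.19 with abemaciclib, against 12.66, 12.41 and 12.66 with vehicle (difference -3.34 ± 0.61, adjusted p = 0.0013). RT1-Ba had 5.07, 8.72 and 8.37 with abemaciclib and 11.48, 10.64 and 11.45 with vehicle (difference -3.80 ± 0.74, adjusted p = 0.00217). Replicate A was the lowest abemaciclib array in both by over 3 units, and without it the differences were -2.24 and -2.65. Cd74, the invariant chain that guides class II molecules, showed the same order at 8.32, 10.48 and 10.04 with abemaciclib against 12.87, 12.46 and 12.80 with vehicle (difference -3.10 ± 0.46, adjusted p = 0.00032). RT1-DMb, which loads peptides, differed by -3.31 ± 0.43 (adjusted p = 0.000119). RT1-Bb was the exception, with 5.87, 7.44 and 7.50 with abemaciclib and 11.86, 6.44 and 12.05 with vehicle, so that vehicle replicate B lay among the abemaciclib arrays (adjusted p = 0.0435, kept in 1 of the 6 fits without 1 array). The mean signal over the class II list was 7.56 in abemaciclib replicate A, 8.81 and 8.67 in the other abemaciclib arrays, and 9.78 to 10.42 in the vehicle arrays.

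MHC class I genes were lower in part. Of 20 genes of class I and its peptide supply, 10 were lower and none higher (median -0.62), and 4 without abemaciclib replicate A, 5 without vehicle replicate B or C and 4 with the RNA covariate. RT1-S3, a class I gene, had signals of 8.71, 8.99 and 7.59 with abemaciclib and 11.08, 11.21 and 11.13 with vehicle, and all 4 of its probe sets differed in that direction (difference -2.71 ± 0.44, adjusted p = 0.000625). Class I genes are near-identical copies, so their probe sets may not tell members apart. Tapbp, a helper of peptide loading, differed by -1.14 ± 0.28 (adjusted p = 0.00967).

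Interferon-stimulated genes were lower in 19 of 45 cases and higher in none (median -0.96). The count moved with every array: it was 12, 11 and 10 when abemaciclib replicate A, B or C was left out, 12, 10 and 4 when vehicle replicate A, B or C was, and 7 with the RNA covariate. The interferon response element was searched as a pair of GAAA with any 2 bases between them. It was in 61.1% of 36 windows of these genes and in 52.9% of 17 class I windows, against 3.0% of the windows of all measured genes. Irf7, a transcription factor that amplifies the response, is shown as the member with the largest fall among those that hold it. The match is on the opposite strand, in capitals, and starts at base -69 (minus strand, chr1:205799974-205800273).
Irf7: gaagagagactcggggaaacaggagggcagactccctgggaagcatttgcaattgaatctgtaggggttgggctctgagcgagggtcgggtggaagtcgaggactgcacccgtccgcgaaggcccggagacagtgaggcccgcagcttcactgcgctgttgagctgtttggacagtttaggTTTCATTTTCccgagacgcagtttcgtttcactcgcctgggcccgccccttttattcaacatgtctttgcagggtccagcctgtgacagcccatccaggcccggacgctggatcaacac
Its signals were 7.92, 7.94 and 6.84 with abemaciclib, against 10.47, 11.09 and 10.92 with vehicle, and no arrays overlapped (difference -3.26 ± 0.63, adjusted p = 0.00191). Igtp, an immunity-related GTPase known to be induced by interferon gamma, showed 5.04, 5.48 and 5.17 with abemaciclib against 8.08, 8.70 and 8.69 with vehicle (difference -3.26 ± 0.46, adjusted p = 0.00022). Isg15, a ubiquitin-like protein, was lower by 3.05 on the log2 scale (adjusted p = 0.016), but not called without abemaciclib replicate C (adjusted p = 0.067) or vehicle replicate C (adjusted p = 0.0688).

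Myeloid genes followed in part. Of 28 macrophage and monocyte genes, 9 were lower and none higher (5 without abemaciclib replicate A, vehicle replicate B or vehicle replicate C), and of 16 dendritic cell genes 6 were lower (4 without vehicle replicate B or C or with the RNA covariate). The 1 higher dendritic cell gene lost its call without abemaciclib replicate C, without any 1 vehicle array and with the RNA covariate. Itgax, the integrin chain CD11c, had signals of 4.76, 4.86 and 5.58 with abemaciclib and 7.22, 7.70 and 8.18 with vehicle (difference -2.63 ± 0.37, adjusted p = 0.000244). Clec9a, a receptor of cross-presenting dendritic cells, differed by -2.46 ± 0.46 (adjusted p = 0.00156). Csf1r, the receptor that macrophages need, showed 4.28, 5.84 and 5.05 with abemaciclib against 6.39, 7.29 and 7.13 with vehicle, with replicate A the lowest (adjusted p = 0.00721, and 0.0539 without that array). Of 17 B and plasma cell genes, 4 were lower (1 without vehicle replicate C).

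Genes of the deeper wall and of other organs gave few calls. Smooth muscle genes had mean signals of 5.94, 6.93 and 6.0 in the abemaciclib arrays, replicate B being the highest, and 6.10 to 6.40 in the vehicle arrays, with 1 of 17 called. Fibroblast and matrix genes had 5.12, 6.86 and 5.67 with abemaciclib and 5.73 to 6.35 with vehicle, with 1 of 32 called. The called genes, Smtn and Timp1, were higher, and both calls were lost without abemaciclib replicate A. Endothelial genes gave 1 call of 21, lost in 5 of the 6 fits without 1 array, and neuronal and glial, pancreatic and red cell genes none of 16, 19 and 5. Of 7 Paneth cell genes 1 was called lower, and that call was lost in 5 of the 6 fits. Of 13 tuft cell genes 3 were lower (2 without abemaciclib replicate A or vehicle replicate B or C), and Defa5, a Paneth cell defensin, was at 3.99 to 4.35 with abemaciclib and 4.13 to 4.32 with vehicle.

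**Figure D3:**
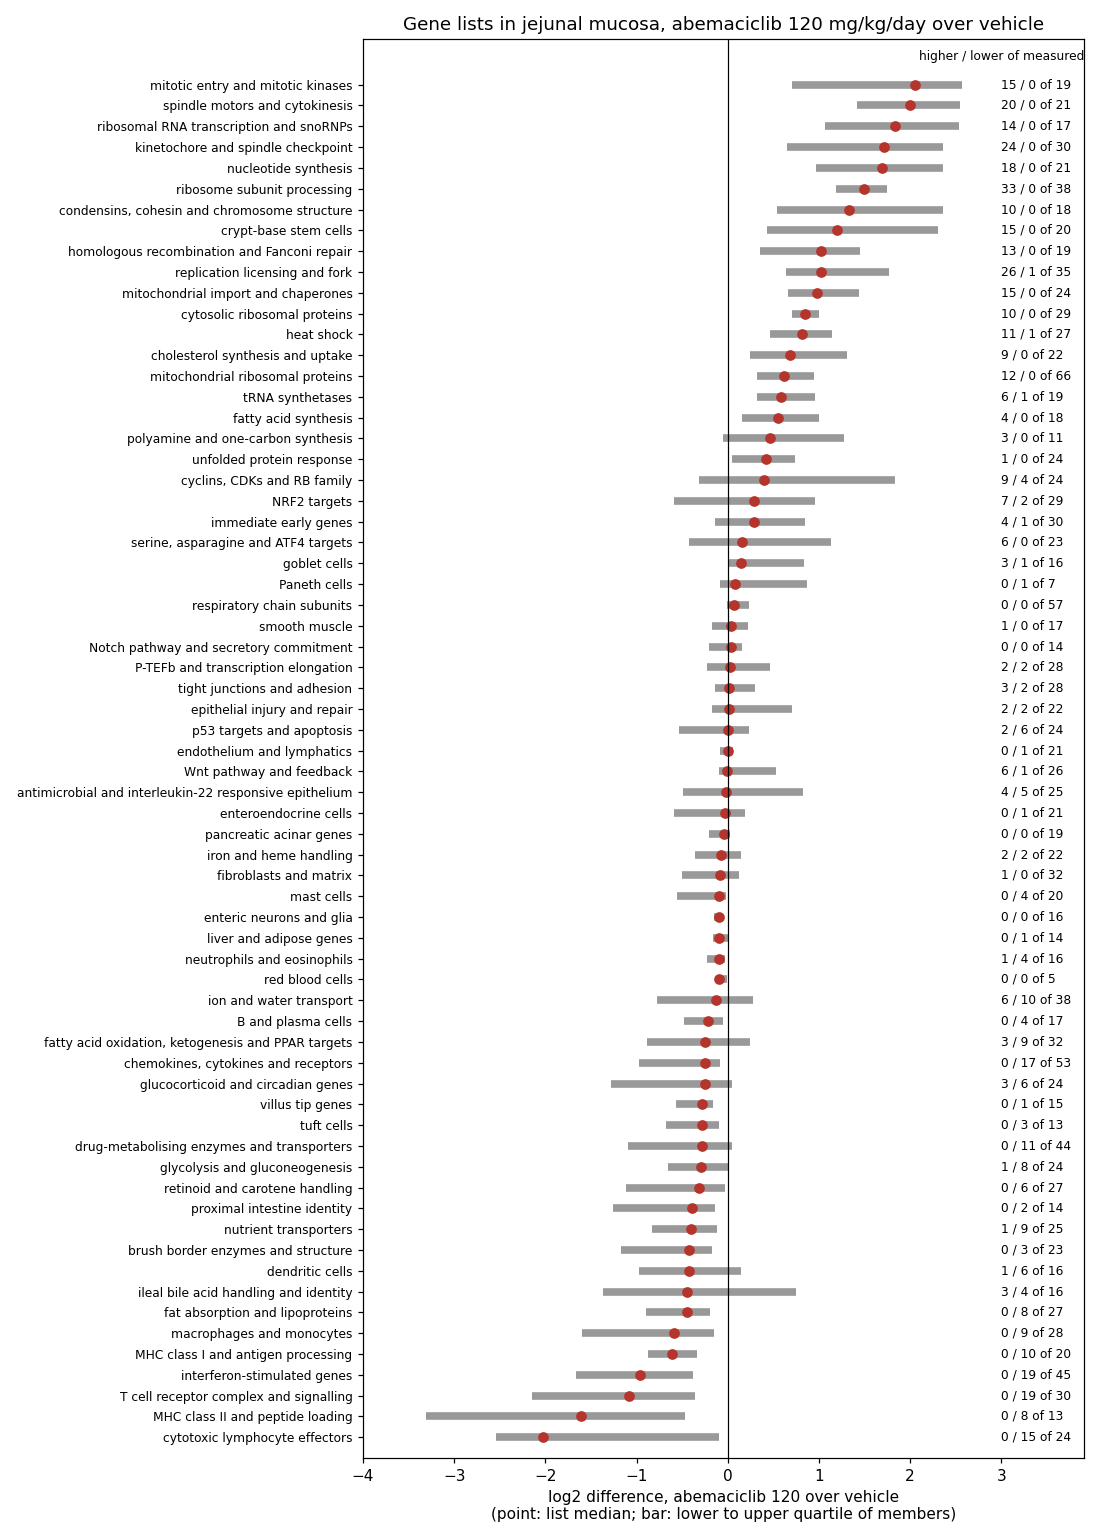
Median log2 difference, abemaciclib at 120 mg/kg/day over vehicle, for each of 66 gene lists (points), with the lower to upper quartile of the members (bars) and the number of members higher and lower of those measured. Lists of mitosis, ribosome production and nucleotide synthesis lie on the right, and cytotoxic, class II and T cell lists on the left, with medians between 2.05 and -2.03.

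The 120 mg/kg/day group was also compared with the 36 mg/kg/day group, which shares its carrier. This comparison uses the same 120 mg/kg/day arrays as that with vehicle. Here 1079 genes were called (7.59%), 685 higher (4.82%) and 394 lower (2.77%) at the higher dose. Without 120 mg/kg/day replicate A, 241 were higher and 156 lower, without 36 mg/kg/day replicate A, 280 and 203, and without 36 mg/kg/day replicate B, 313 higher. Of the calls, 63.5% were higher with the deposited values and 40.6% after each array was centred on its median, which moved the median difference of all genes to -0.20 here and to -0.13 over vehicle. With only the groups compared in the fit, 152 genes were higher and 157 lower, and with the RNA covariate 208 and 228.

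Mitotic and replication genes were higher at the higher dose, and class II, macrophage and T cell genes lower. Of 21 spindle genes, 20 were higher at 120 than at 36 mg/kg/day, as were 24 of 30 kinetochore genes and 27 of 35 replication genes, while 15 of 38 subunit processing genes and none of 29 cytosolic ribosomal protein genes were. On the lower side were 8 of 13 class II genes, 11 of 30 T cell receptor genes, 13 of 28 macrophage genes and 1 of 45 interferon-stimulated genes. Psat1 had signals of 5.47, 6.07 and 5.29 in vehicle arrays, 5.32, 5.28 and 6.97 at 36 mg/kg/day and 9.32, 8.75 and 9.12 at 120 mg/kg/day, a difference between the doses of 3.21 ± 0.45 (adjusted p = 0.000795). Ttk had 4.10, 4.40 and 4.13 with vehicle, 4.0, 4.02 and 5.18 at 36 and 7.70, 6.88 and 7.29 at 120 mg/kg/day, a difference of 2.89 ± 0.31 (adjusted p = 0.000116). For both, replicate C was the highest 36 mg/kg/day array and lay below every 120 mg/kg/day array. Slpi had 8.92, 9.48 and 9.02 with vehicle, 9.30, 9.57 and 9.30 at 36 and 4.87, 4.94 and 6.74 at 120 mg/kg/day (difference -3.88 ± 0.61, adjusted p = 0.00125). Gzma lay in between at 36 mg/kg/day, with 10.57, 11.18 and 11.22 for vehicle, 9.34, 9.13 and 9.51 at 36 and 4.94, 4.76 and 6.66 at 120 mg/kg/day (difference -3.87 ± 0.69, adjusted p = 0.00291).

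**Figure D4:**
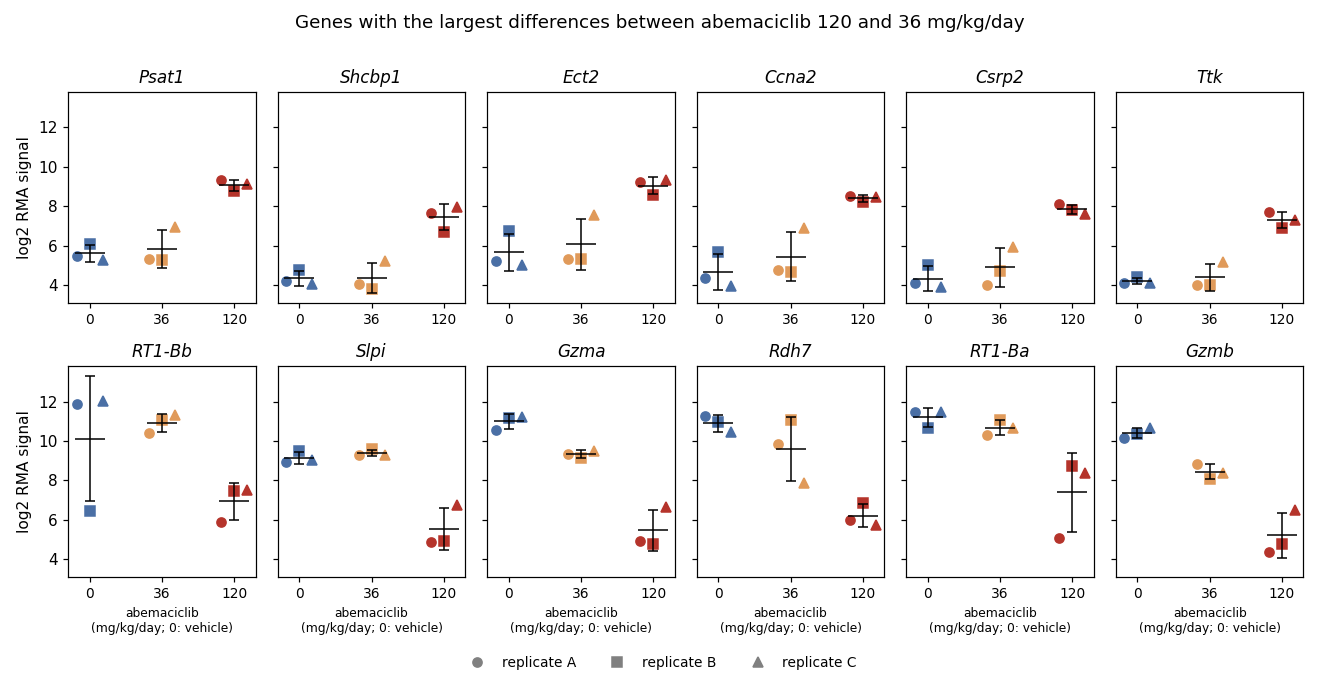
Log2 signal in each array of 12 genes, in order of abemaciclib dose with vehicle at 0. They are the 6 largest called rises and 6 largest called falls at 120 over 36 mg/kg/day whose arrays do not overlap, placeholder symbols left out. Points are arrays, marked by replicate letter, and bars are the mean with its SD (n = 3). The 6 genes of the upper row lie highest at 120 mg/kg/day and the 6 of the lower row lowest, except RT1-Bb, whose vehicle replicate B is at 6.44.

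Several genes that changed at 120 mg/kg/day had no call between the doses. Cdkn2d differed from vehicle by -1.94 at 36 and -1.70 at 120 mg/kg/day (between the doses 0.23 ± 0.26, adjusted p = 0.677). Ppargc1a differed by -1.94 and -1.96 (between the doses -0.02 ± 0.28, adjusted p = 0.978), Tnfsf10 by -2.59 and -3.0 (between the doses -0.41 ± 0.38, adjusted p = 0.599) and Axin2 by 1.63 and 1.72 (between the doses 0.09 ± 0.35, adjusted p = 0.913). Frat2 was called between the doses: it differed from vehicle by -3.28 at 36 and -2.14 at 120 mg/kg/day, and the difference between the doses was 1.14 ± 0.33 (adjusted p = 0.0438). The 95% interval of the difference between the doses ran from -0.64 to 0.83 for Axin2 and from -0.62 to 0.58 for Ppargc1a.

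The values for ribociclib at 300 mg/kg/day and palbociclib at 100 mg/kg/day are given beside these without comparison, since the doses differ and all groups share the vehicle arrays. Cdk1 differed from vehicle by 3.48 with abemaciclib at 120, by 0.16 with ribociclib and by -0.08 with palbociclib. Cyp27a1 differed by -3.15, -0.34 and -0.04 in the same order, Gzma by -5.54, -1.57 and -1.49, and Rdh7 by -4.69, -0.26 and -0.10. Fabp6 differed by 6.05, 5.53 and -2.54, and Fkbp5 by 2.05, 2.05 and 1.37.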

How the data were processed

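Total RNA from jejunal mucosal scrapings was hybridised to Affymetrix rat arrays, 1 per sample. The deposited values are log2 signals per probe set, made by the authors with RMA in Expression Console and analysed in Transcriptome Analysis Console, per the submitters' processing notes, which give no versions here. RMA corrects background, quantile-normalises and summarises probes, so differences are relative to the whole array. The arrays' number limits the precision, and no detection calls were used.

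Of 31099 probe sets, 57 controls were left out, 20826 had 1 gene symbol, 436 several and 9780 none in the platform annotation. Entrez IDs matched for 20758, and 0 symbols changed. A gene was represented by its probe set of highest mean signal across the series, which gave 14217 genes, and 4525 had several probe sets. Where probe sets disagreed, the text says so for the genes it describes.

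All 6 groups entered a single limma fit (lmFit, eBayes with an intensity trend, 12 residual degrees of freedom), with Benjamini-Hochberg adjustment over all genes at 0.05. Single-value exact permutation tests were not used for calls, since 3 arrays against 3 cannot go below 0.1. Nothing says that the replicates came from separate rats or batches, so p-values measure only the spread between these samples. No 2 arrays were identical. In simulated data for abemaciclib at 120 mg/kg/day over vehicle, 200 of 14217 genes were changed. Independent normal noise was drawn at each gene's own spread. Recovery was 20% at a 1.5-fold change, 50% at 2-fold, 86% at 4-fold and 98% at 8-fold, and 5 of 132 calls were false. In the real data 18.0% of genes were called, and the simulation held no correlated genes or outlying arrays. These rates therefore describe the simulated setting and need not hold for the real comparison.

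The named genes are the 20 called rises and 20 called falls of largest size whose arrays do not overlap, up to 6 called members of largest difference in each list and up to 2 called against its median, the 6 largest rises and falls over 36 mg/kg/day, and a fixed set of cell cycle, lineage and transport genes. Placeholder symbols, such as those that start with LOC or RGD, were left out of the largest rises and falls. Guca2a, Guca2b, Prkg2, Gucy2c, Aqp3, Kcnq1, Lrig1, Mcm5, Krt8, Muc2, Defa5 and Cpa3 lie outside the rule for named genes and were added after their values were seen. The same holds for Cdh1, Cdh17, Krt19 and Cela1. The members and lists were chosen with earlier results of these data known. Alternatives were quantile normalization, median centring, a filter on dim genes, other probe set rules, no trend, only the groups compared, a replicate block, a fold minimum, an RNA quality covariate and leaving out each array. Replicate letters pair nothing by label: same-letter arrays of the 2 groups correlated in their deviations at 0.21, -0.15 and 0.13. Promoter sequences are RefSeq's (GRCr8). R 4.3.3, limma 3.58.1, Python 3.11.15, pandas 2.3.3, numpy 2.4.6 and matplotlib 3.10.9 were used.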

Additional observations from a re-analysis of the deposited data

Results flagged for a closer look

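For 12 genes the effect at 120 mg/kg/day differed from that at 36 mg/kg/day in the fit across all genes. These are the largest such differences, the values below are log2 at the higher minus the lower dose, and both effects share the vehicle arrays. Among cell division genes, the difference was 2.95 for Ccna2, the cyclin of S phase, 2.98 for Ect2, which directs cytokinesis, 3.08 for Shcbp1, a partner of the central spindle, and 2.89 for Ttk, the checkpoint kinase. Csrp2, an actin-associated LIM protein, differed by 2.94 and Psat1, of serine synthesis, by 3.21. On the lower side, Gzma and Gzmb, the granzymes, differed by -3.87 and -3.24, the class II genes RT1-Ba and RT1-Bb by -3.29 and -3.98, Rdh7, the retinol dehydrogenase, by -3.39, and Slpi, the protease inhibitor, by -3.88.

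Probe sets without a gene name were outside the comparison of genes. Of 9780 such probe sets, 348 were called higher with abemaciclib at 120 mg/kg/day and 266 lower, or 6.28%, in a limma fit of all probe sets. In the same fit 13.6% of the 20826 probe sets with 1 gene symbol were called, 1422 higher and 1415 lower.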

How the results depend on the processing

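Leaving out 1 array at a time gave 673 to 1413 genes higher and 676 to 1084 lower over vehicle, and 241 to 927 higher and 156 to 417 lower over 36 mg/kg/day. With the RNA quality covariate 705 genes were higher over vehicle, and over 36 mg/kg/day 208 were higher and 228 lower. With only the groups compared in the fit, 152 were higher and 157 lower over 36 mg/kg/day. After median centring 781 were lower over 36 mg/kg/day. The causes were not tested. All other alternatives moved these counts by less than 1.5 times. Of the 305 named genes called over vehicle, none reversed under any alternative run, 85 lost the call with the RNA covariate, 28 to 98 without 1 array and up to 17 under each other alternative. Replicate letters do not pair arrays by label, and same-letter deviations correlated at 0.21, -0.15 and 0.13. With the letters as a replicate block, 1431 genes were higher and 1286 lower over vehicle and 672 higher and 421 lower over 36 mg/kg/day, and 5 named calls were lost. Signals below the array medians limit what can be said of levels, and 3 arrays a group limit every call.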

Other observations

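Several of the largest changes have not yet been described. Ly6al, a member of the Ly6 family of surface proteins, had signals of 12.13, 11.22 and 11.73 with abemaciclib at 120 mg/kg/day, against 5.95, 6.44 and 5.79 with vehicle, a log2 difference of 5.63 ± 1.14 (limma, adjusted p = 0.00281). Gpr15lg, a secreted ligand of the lymphocyte homing receptor GPR15, had 10.59, 10.65 and 10.30 with abemaciclib and 6.47, 7.21 and 6.22 with vehicle (difference 3.88 ± 0.63, adjusted p = 0.000569). Ppp1r1b, a phosphatase inhibitor best known from neurons, rose by 3.34 ± 0.41 (adjusted p = 8.38e-05). On the lower side, Slco2a1, which clears prostaglandins, showed 5.64, 6.82 and 5.84 with abemaciclib against 10.09, 9.24 and 9.44 with vehicle (difference -3.49 ± 0.43, adjusted p = 9.03e-05). Cda, cytidine deaminase, fell by 3.58 on the log2 scale (adjusted p = 0.000255), and Adgrd1, an adhesion receptor, by 3.74 (adjusted p = 7.47e-05). Slc34a2, a phosphate carrier, was higher by 3.29 ± 1.03 (adjusted p = 0.0363), with vehicle arrays spread over 9.71, 5.49 and 7.44, and kept its call in 1 of the 6 fits without 1 array.

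Of 19 tRNA synthetase genes, 6 were higher and 1 lower, and 2 were higher without abemaciclib replicate A or with the RNA covariate and 3 without abemaciclib replicate C or any 1 vehicle array. Their promoter windows held the amino acid response element, searched as TGATG, any base and AA, in 41.2% of 17 cases, against 2.2% of the windows of all measured genes. Of 27 heat shock genes, 11 were higher and 1 lower, with a median of 0.81 and 23 differences above 0. The higher count was 2 without abemaciclib replicate A, 7 without replicate C, 5 without vehicle replicate A, and 3 without vehicle replicate C or with the RNA covariate. The lower count was 0 without abemaciclib replicate A or B, without any 1 vehicle array and with the RNA covariate. Without abemaciclib replicate C it was 2.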
